A study of Mus musculus with 18 samples.

Results

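Runx1, Runx2 and Runx3, which encode the DNA-binding RUNX transcription factors, and Cbfb, which encodes the partner subunit they share, are described here in mammary epithelial cells. They were taken from the deposited gene table by gene identifier and are 4 of its 27179 genes. The set was chosen by measured values of these data, in that Runx3 counts had been seen to appear in luminal progenitors of knockout mice. The knockout and wildtype levels in luminal progenitors are therefore a description with no test, and so is every comparison that uses Runx3 in those cells.

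RUNX proteins bind DNA through the Runt domain, and CBFB, which does not touch DNA itself, binds that domain and strengthens its hold. The complexes raise or lower transcription according to the cofactors they recruit, such as the TLE corepressors. RUNX1 is known for its part in blood formation, RUNX2 for bone formation and RUNX3 for cytotoxic T cells and sensory neurons. In the mammary gland RUNX1 is the family member best known from the epithelium, and RUNX1 and CBFB are among the genes mutated in human breast cancer.

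RNA was sequenced in bulk from sorted basal (myoepithelial) cells, which form the contracting outer layer of the gland, and from luminal progenitors (LP) and mature luminal (ML) cells, which line it. The donors were female mice aged 14 weeks, 3 per genotype, and the 18 libraries, 1 from each population of each mouse, form 6 groups of 3. Knockout (KO) mice are given as MMTV-cre(T/+), Brca2(delta/delta) and Trp53(delta/+), so that, as labelled, every KO library combines deletion of Brca2 with deletion of 1 Trp53 copy. The control mice are given as wildtype (WT). The strain label, with floxed Brca2 and Trp53 alleles and MMTVcre, reads the same for all 18 libraries, and it does not say whether WT mice carried the transgene. Cre is driven by the MMTV promoter, which is active in mammary epithelium, and the share of cells in which it acted is not given. In such bulk samples, fewer cells of a type and less RNA per cell cannot be told apart.

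Library totals ran from 5.97 to 39.19 M counts. The smallest library was of ML WT (5.97 to 20.33 M in that group), and in LP the KO libraries (22.42 to 32.72 M) were deeper than the WT libraries (9.29 to 16.17 M). Trp53 counts separated the genotypes in every population. Its level in counts per M (CPM) was 22.7 ± 11.6 in KO against 74.9 ± 16.2 in WT for basal cells, 8.002 ± 0.934 against 96.7 ± 46.5 for LP and 15.2 ± 1.72 against 45.3 ± 5.09 for ML (SD, n = 3). Each KO mean is lower than 1 of 2 copies at an even level per copy would leave, most of all in LP, and the cause was not tested. Brca2 counts overlapped between the genotypes, and as a sum over the gene they do not test a deletion of some of its exons. Krt5, a basal keratin, stood at 1839.8 to 1891 CPM in basal WT and at most 3.48 in the WT luminal libraries. Kit, a progenitor receptor, was highest in LP WT (492 to 852 CPM), and Prlr, the prolactin receptor, in ML WT (4779 to 5557 CPM). ML KO libraries stood apart from these labels, with Krt5 at 141 to 184, Kit at 127 to 257 and Prlr at 462 to 2524 CPM. The lowest Prlr value belonged to ML KO mouse 1, so the members' tests and the list counts in ML KO are also given without that library.

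The DNA around the gene starts is shown first, because the deposited value is 1 count per gene and cannot tell a gene's alternative starts apart. All 4 genes matched RefSeq windows of 300 bases, 250 before and 50 after a transcript's first base, on the GRCm38.p6 assembly. Runx1 and Runx3 have a distal and a proximal window each. Runx2 and Cbfb have 1 window each, so any other start of these genes was not searched. The window of Runx2 and the distal windows of Runx1 and Runx3 hold an identical run of 18 bases, which is the longest that they share. It is printed in capitals with its flanks, on the strand of each gene.
Runx3: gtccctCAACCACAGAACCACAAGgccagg
Runx1: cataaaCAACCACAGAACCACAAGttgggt
Runx2: cacaaaCAACCACAGAACCACAAGtgcggt
The stretches lie at chr4:135120503-135120532 (plus strand), chr16:92826025-92826054 (minus strand) and chr17:44814583-44814612 (minus strand). The run begins 136 bases before the first transcribed base in Runx3, and 26 and 21 bases after it in Runx1 and Runx2. It was found in 4 of 32851 RefSeq windows (0.0122%): those of the 3 RUNX genes and that of Gm16225. Gm16225 is a noncoding RNA that starts beside Runx3 on the other strand, and its window covers the same DNA.

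The run holds 2 copies of ACCACA, which read TGTGGT on the other strand, the core letters that RUNX proteins are known to bind. TGTGGT was searched on both strands and stood in 16.8% of all windows, and TGCGGT, searched likewise, in 6.45%. The distal windows of Runx3 and Runx1 held 2 matches each, the Runx2 window held 4, and the proximal windows of Runx1 and Runx3 and the Cbfb window held 0. These matches are letters in a window, and binding was not measured. The 250 bases before the distal start of Runx3, with both matches in capitals, show how close together they lie (chr4:135120395-135120644, plus strand).
Runx3 distal: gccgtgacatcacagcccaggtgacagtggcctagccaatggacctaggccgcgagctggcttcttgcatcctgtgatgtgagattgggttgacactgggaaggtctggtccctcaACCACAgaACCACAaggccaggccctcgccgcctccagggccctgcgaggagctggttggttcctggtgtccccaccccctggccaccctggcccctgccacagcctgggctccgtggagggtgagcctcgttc

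Levels are in CPM on library sizes scaled by TMM, which corrects for differences in RNA composition, and are given for mice 1, 2 and 3 in that order. Replicate numbers are names of mice and mark no order. Each p-value comes from the quasi-likelihood test of edgeR, adjusted by Benjamini-Hochberg over 16466 genes, with a gene called below 0.05. All 4 members passed the filter on low counts. Runx3 could pass it through its KO luminal libraries alone, so its passing the filter is no support for a difference.

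Runx1 (gene 12394, chromosome 16, 92601466 to 92826074) was the most abundant RUNX gene per kilobase in every group, with its highest level in basal cells. In basal WT it stood at 1765, 1772 and 1782 CPM. In LP WT it stood at 359, 354 and 155 CPM, and in ML WT at 632, 509 and 289 CPM. The basal libraries lay above all luminal libraries, while LP and ML overlapped. Runx1 was 6.13-fold lower in LP than in basal cells (log2 fold change -2.62, SE 0.34, edgeR adjusted p = 7.1e-06). It was 3.72-fold lower in ML than in basal cells (log2 fold change -1.90, SE 0.33, edgeR adjusted p = 1.2e-04). Between LP and ML the difference was -0.72 on the log2 scale (SE 0.32) and was not called (edgeR adjusted p = 0.093). With the mouse as a block, which pairs the libraries of each mouse, it was -0.74 and passed the threshold (adjusted p = 0.044), and it also passed without ML WT mouse 3 (-0.98, adjusted p = 0.033). The WT comparisons share libraries with each other.

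Runx2 (gene 12393, chromosome 17, 44495987 to 44814797) was present in basal cells and LP and low in ML cells of WT mice. Its levels in basal WT were 31.6, 43.7 and 46.1 CPM, and those in LP WT were 20.4, 47.9 and 24.9 CPM. In ML WT the levels were 0.158, 0.918 and 0.556 CPM, from 1, 11 and 13 counts. Basal cells and LP overlapped, and every ML library lay below both. Runx2 was 67.9-fold lower in ML than in basal cells (log2 fold change -6.08, SE 0.43, edgeR adjusted p = 2.5e-09). It was 52.1-fold higher in LP than in ML (log2 fold change 5.70, SE 0.43, edgeR adjusted p = 4.5e-08). Between LP and basal cells the difference was -0.38 (SE 0.32, edgeR adjusted p = 0.38).

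Runx3 (gene 12399, chromosome 4, 135120645 to 135177990) was barely counted in WT libraries. Its counts were 1, 6 and 1 in basal WT, 1, 1 and 0 in LP WT, and 0, 0 and 2 in ML WT. The libraries with 0 counts allow up to 0.184 CPM in LP WT mouse 3, and 0.475 and 0.2502 CPM in ML WT mice 1 and 2, from 3 counts of the scaled library size. Such limits cover counting error only. ML and basal WT overlapped and did not differ detectably (log2 difference -1.42, SE 1.13, edgeR adjusted p = 0.30).

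Cbfb (gene 12400, chromosome 8, 105170674 to 105217989) was even across the populations beside the RUNX genes. It stood at 149.98, 137 and 132 CPM in basal WT, at 182, 89.6 and 94.6 in LP WT and at 101, 106 and 93.6 in ML WT. LP overlapped with both other populations, while all ML libraries lay below all basal libraries. The log2 difference of ML from basal cells was -0.48 (SE 0.25, edgeR adjusted p = 0.11). When only those 2 groups were fitted it was -0.50 (edgeR adjusted p = 0.045). Those of LP were -0.20 from basal cells (SE 0.25, edgeR adjusted p = 0.57) and 0.28 from ML (SE 0.25, edgeR adjusted p = 0.41). Without LP WT mouse 1, the library at 182 CPM, Cbfb in LP was lower than in basal cells by -0.60 (edgeR adjusted p = 0.04).

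The count of members called between WT populations is set beside the share of all genes called. In ML against basal cells 2 of 4 members were called lower, where 53.3% of all genes were called and 28.5% were lower. The libraries of 3 members (Runx1, Runx2 and Cbfb) lay wholly below basal cells there, as did those of 32.7% of all genes. In LP against basal cells 1 of the 3 members tested, Runx1, was called lower, and its libraries did not overlap (36.1% of all genes called, 19.2% lower, 23.7% wholly below). In LP against ML 1 of 3, Runx2, was called higher (34% of all genes called, 18.3% higher, 22.8% wholly above).

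**Figure D1:**
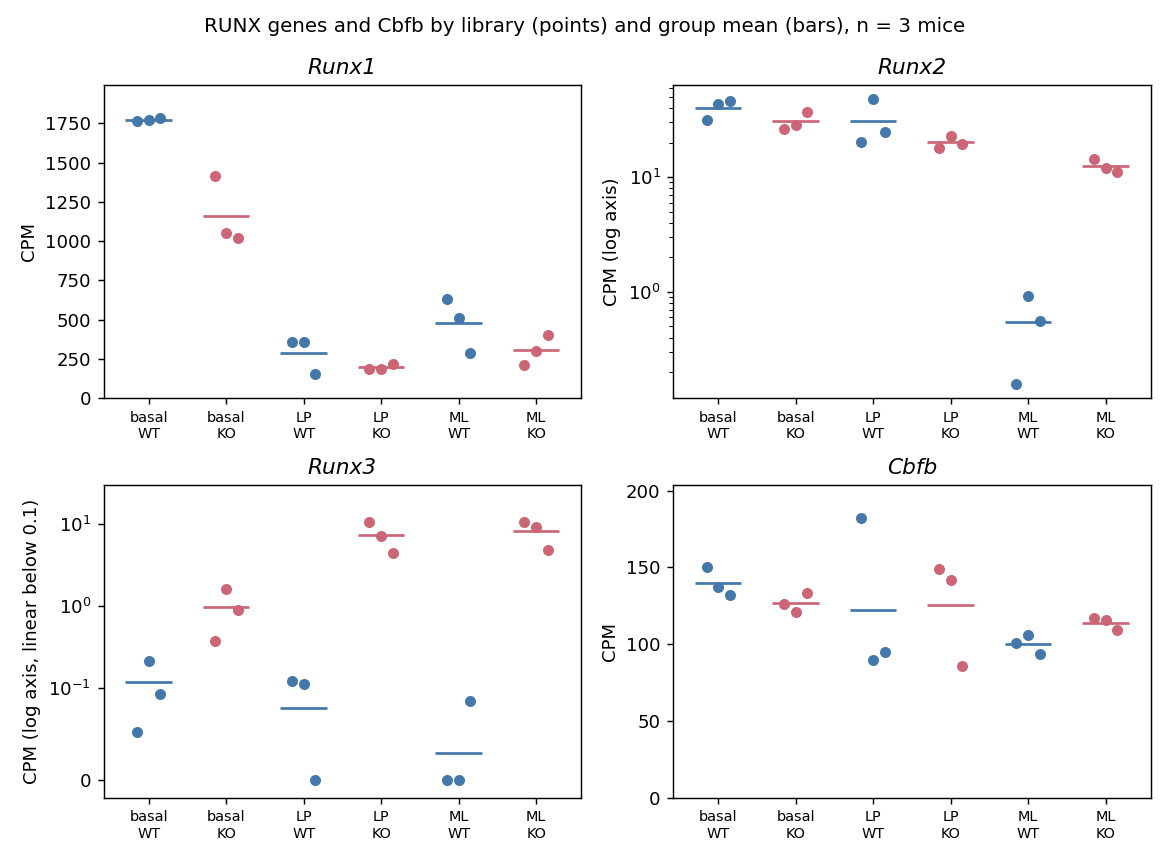
Level of each gene in CPM (y axis; linear for Runx1 and Cbfb, logarithmic for Runx2, logarithmic above 0.1 and linear below for Runx3) in each of the 6 groups (x axis). Points are libraries of 3 mice per group, blue for WT and red for KO, and short bars are group means. Runx2 stood at 0.158 to 0.918 CPM in ML WT, while Runx3 reached 4.45 to 10.5 CPM in the KO luminal libraries.

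The KO effect was first compared in ML cells, whose libraries the choice of the genes did not use. The ML and basal libraries come from the same mice as the LP libraries in which Runx3 was seen. The Runx3 tests in ML and basal cells are therefore not independent of the choice. Runx2 and Runx3 rose in ML KO, so 2 of 4 members were called, both higher, where 15.1% of all genes were called and 12.5% were higher. The KO libraries of Runx2, Runx3 and Cbfb lay wholly above WT, as did those of 21.6% of all genes. Runx2 stood at 14.5, 12.1 and 11.03 CPM in ML KO, above all ML WT libraries. The rise was 20.99-fold (log2 fold change 4.39, SE 0.42, edgeR adjusted p = 9.6e-07). Without ML KO mouse 1 it was 4.28 on the log2 scale (adjusted p = 4.1e-06). Runx2 in ML KO still lay below basal KO, where it stood at 26.5, 28.4 and 37.002 CPM (log2 fold change -1.29, SE 0.32, edgeR adjusted p = 0.0047).

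Runx3 in ML KO had 106, 330 and 122 counts, or 10.5, 9.11 and 4.82 CPM, against 0, 0 and 2 counts in ML WT. The highest observed ML WT value was 0.0856 CPM, and the groups did not overlap. The fitted log2 fold change was 7.30 (SE 0.88, edgeR adjusted p = 1.3e-05), and 7.08 without ML KO mouse 1 (adjusted p = 4.5e-05). Both WT counts lie in mouse 3, and without that library the value was 10.35 (edgeR adjusted p = 0.00018). Over 14 alternatives it ran from 6.69 (limma voom) to 10.35, each past the threshold. The pooled counts, 558 against 2, give a ratio of 162 with an exact 95% interval for counting error of 44.8 to 1345. Runx3 was also higher in ML KO than in basal KO (log2 fold change 3.03, SE 0.60, edgeR adjusted p = 7.3e-04). Without ML KO mouse 1 that difference was 2.81 (adjusted p = 0.0028), and the one of Runx2 from basal KO was -1.40 (adjusted p = 0.0089).

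Runx1 and Cbfb were not called in ML. Runx1 stood at 209.96, 300.4 and 402 CPM in ML KO, overlapping with ML WT (log2 fold change -0.65, SE 0.32, edgeR adjusted p = 0.20). Cbfb stood at 117, 116 and 109 CPM, above all 3 WT libraries. Its log2 fold change was 0.19 (SE 0.25, edgeR adjusted p = 0.67). Runx1 and Runx2 were called lower and Runx3 higher in ML KO than in basal KO, 3 of 4 members, where 34.4% of all genes were called (18.1% lower and 16.3% higher). Runx1 was 3.82-fold lower there (log2 fold change -1.93, SE 0.33, edgeR adjusted p = 2.0e-04), and Cbfb was not called (-0.15, SE 0.25, edgeR adjusted p = 0.68). The libraries of Runx1, Runx2 and Cbfb lay wholly below basal KO, as did 26.9% of genes, and those of Runx3 wholly above, as did 24.6%. Without ML KO mouse 1 the edgeR values against ML WT were -0.44 for Runx1 (adjusted p = 0.55) and 0.17 for Cbfb (adjusted p = 0.82). Against basal KO they were -1.73 (adjusted p = 0.0018) and -0.17 (adjusted p = 0.68).

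In basal cells Runx3 was the only member called, where 2.54% of all genes were called and 2.47% were higher. It had 7, 60 and 12 counts in basal KO, or 0.378, 1.62 and 0.886 CPM, and every KO library lay above every WT library, as for 10.8% of genes. The log2 fold change was 2.85 (SE 0.73, edgeR adjusted p = 0.042), and pooled counts of 79 against 8 gave a ratio of 8.26 (exact 95% interval 3.996 to 19.8). This call was lost in 8 of 14 alternative analyses (adjusted p 0.0078 to 0.30), among them those without basal KO mouse 2 (2.18, adjusted p = 0.30), basal KO mouse 3, or any of the 3 WT mice in turn. Runx1 stood at 1415, 1049 and 1022 CPM in basal KO, below all WT libraries, but was not called (log2 fold change -0.61, SE 0.32, edgeR adjusted p = 0.57). That separation downward held for 6.82% of genes. Runx2 (-0.40, SE 0.32, adjusted p = 0.81) and Cbfb (-0.14, SE 0.25, adjusted p = 0.95) overlapped between the genotypes, by the same edgeR test. Cbfb stood at 126, 121 and 133 CPM in basal KO.

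Some markers of other populations were higher in basal KO beside Runx3. Of the LP markers 2 of 9 were called higher. These were Kit, at 13.6 ± 6.74 against 2.16 ± 0.738 CPM (log2 fold change 2.69, edgeR adjusted p = 5.4e-04), and the transcription factor Ehf (2.41, adjusted p = 0.001). Of the ML markers 1 of 9 was called higher, the ligand gene Areg, at 68.1 ± 5.11 against 6.98 ± 6.42 CPM (3.27, edgeR adjusted p = 0.0012). The pan-leukocyte markers summed to 28.7 to 35.8 CPM in basal KO and 8.29 to 12.4 in basal WT. Most of that sum in basal KO was Arhgdib, at 25.2 ± 1.95 against 6.22 ± 2.801 CPM, which was not called (2.00, edgeR adjusted p = 0.1). The median log2 fold change of the list was -0.08, beside -0.02 over all genes. Of the 6 measured pan-leukocyte genes 1 was called higher, Cytip, at 4.89 ± 1.94 against 1.25 ± 0.8096 CPM (2.07, edgeR adjusted p = 0.031). That call passed in 7 of 14 alternatives. Of the T and natural killer (NK) cell and the myeloid markers 0 of 8 each were called, and of the fibroblast markers 1 of 9, Fbln1, was higher. The part of these populations in the Runx3 counts of basal KO was not tested.

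The KO effect on Runx2 differed between ML and basal cells by 4.79 on the log2 scale (SE 0.52, edgeR interaction adjusted p = 1.4e-05). For Runx3 the difference was 4.45 (SE 1.26, edgeR interaction adjusted p = 0.041). With the mouse as a block, the Runx3 difference was 4.32 and missed the threshold (adjusted p = 0.065), and the call was lost in 11 of 20 alternatives. The values were 4.23 (adjusted p = 0.08) without ML KO mouse 1 and 3.58 (adjusted p = 0.32) without basal WT mouse 2. That of Runx2 without ML KO mouse 1 was 4.68 (adjusted p = 5.2e-05). The differences for Runx1 (-0.04, SE 0.45, adjusted p = 0.99) and Cbfb (0.33, SE 0.35, adjusted p = 0.71) were not called by that test, nor without ML KO mouse 1 (0.17 and 0.31, adjusted p = 0.95 and 0.86). Thus 2 of 4 members were called, where 6.1% of all genes were called and 5.02% had the larger value in ML.

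**Figure D2:**
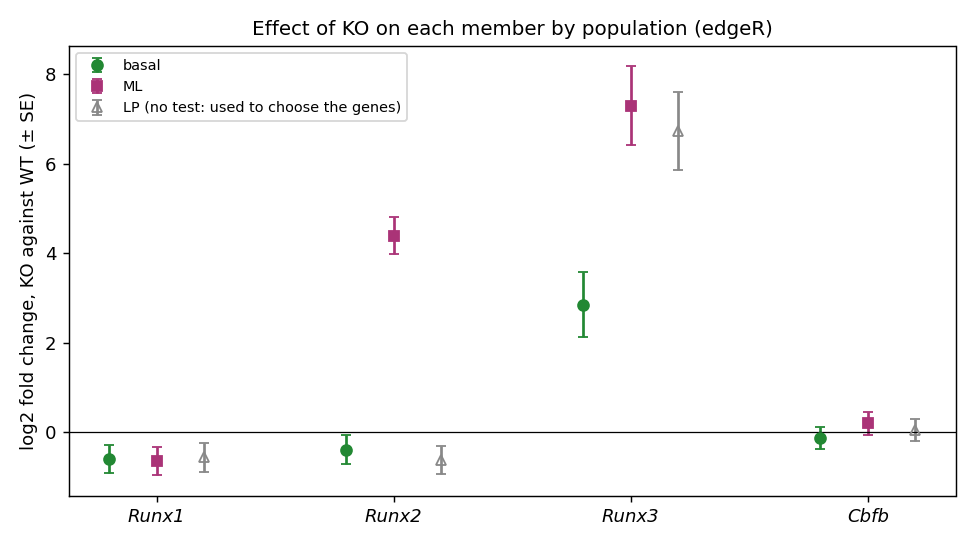
Log2 fold change of KO against WT with its standard error (y axis) for each gene (x axis), from the edgeR fit with 3 mice per group. Green circles are basal cells, purple squares ML cells, and open grey triangles LP, which are a description. Runx2 rose by 4.39 in ML and stood at -0.40 in basal cells, while Runx3 was higher in KO in each population.

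In LP, Runx3 had 249, 253 and 135 counts in KO, or 10.4, 7.06 and 4.45 CPM, against 1, 1 and 0 in WT, a separation upward that held for 17.7% of genes. This is the observation by which the genes were chosen. The KO libraries were deeper. After thinning of all libraries to the smallest total, Runx3 kept 69, 46 and 29 counts in LP KO against 1, 0 and 0 in LP WT. The other members overlapped between the genotypes in LP. Runx1 stood at 182, 185 and 219 CPM in LP KO (log2 difference from WT -0.57), Runx2 at 18.01, 22.7 and 19.6 (-0.63), and Cbfb at 149, 142 and 85.5 (0.04). For comparison, 13.2% of all genes were called between the genotypes in LP, in either direction. Leukocyte markers were higher in LP KO too, with 3 of 6 pan-leukocyte, 2 of 8 myeloid and 2 of 8 T and NK cell markers called higher by edgeR. Their median log2 fold changes were 3.19, 2.55 and 1.48, beside 0.02 over all genes. Csf1r, a macrophage receptor, stood at 4.74 ± 2.76 CPM in LP KO against 0.762 ± 0.508 in LP WT. The myeloid sum was 8.896 to 57.7 CPM in LP KO (median 12.4) and 6.62 to 12.5 in LP WT (median 11.01), so the groups overlapped. The pan-leukocyte sum overlapped too (231 to 282 and 143 to 411). Most of the pan-leukocyte sum was Cytip, at 251 ± 26.998 CPM in LP KO and 279.6 ± 133 in LP WT, so its overlap says little of the other markers. The part of leukocytes in the Runx3 counts of LP KO was not tested.

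Levels of different genes were compared per kilobase of counted length. Runx1 made up most of the summed RUNX level in every group, from 84.6% ± 3.16 in LP KO to 99.8% ± 0.12 in ML WT (SD, n = 3). Runx2 held 11% ± 4.69 in LP WT and 2.37% ± 0.435 in basal WT. In KO luminal cells Runx3 held 6.1% ± 2.76 of the sum in LP and 5.17% ± 2.98 in ML, beside Runx2 at 9.31% ± 1.35 and 4.32% ± 1.79. As shares of raw counts, with no correction for length, Runx3 held 3.35% in LP KO and 2.82% in ML KO, so that in ML KO it came below Runx2 (4.19%). In all WT groups the mean share of Runx3 per kilobase was 0.0378% or less. Cbfb per kilobase relative to that sum was 0.195 ± 0.0145 in basal WT, 0.582 ± 0.211 in ML WT and 1.03 ± 0.411 in LP WT. The KO ratios were 0.274 ± 0.0482, 0.917 ± 0.281 and 1.399 ± 0.458 in the same order. The ratios of basal cells lay below those of the luminal groups in every library, while those of LP and ML overlapped. These shares describe messenger RNA and carry no test.

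Markers of other populations moved in ML KO together with Runx2 and Runx3. There 8 of 11 basal markers and 8 of 9 LP markers were called higher, and 4 of 9 ML markers were called lower. Without ML KO mouse 1 these counts were 9, 5 and 1. The 1 ML marker was the ligand gene Tnfsf11, which was not among the 4 called with all libraries. Those 4, Cited1, Esr1, Foxa1 and Wnt4, all lost their calls. Over all genes 1540 were called higher and 97 lower in place of 2059 and 432. Krt5 stood at 157 ± 23.4 CPM against 2.64 ± 0.788 in ML WT, and Kit at 184 ± 66.5 against 11.8 ± 1.37. As a share of the LP KO mean, the LP markers in ML KO had a median of 26.3%, from 9.55% for Cd14 to 123% for Itga2. On that scale Runx2 was at 62.4% (53.3% to 80.4% in the 3 mice) and Runx3 at 112% (101% to 129%). Both lay within the range of the LP markers, among which Ehf was at 59.3% (47.02% to 82.3%). As a share of the basal KO mean, the basal markers had a median of 2.21% and at most 12.4% (Trp63), while Runx2 was at 40.96%. The part of these populations in the rise of Runx2 and Runx3 was not tested.

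**Figure D3:**
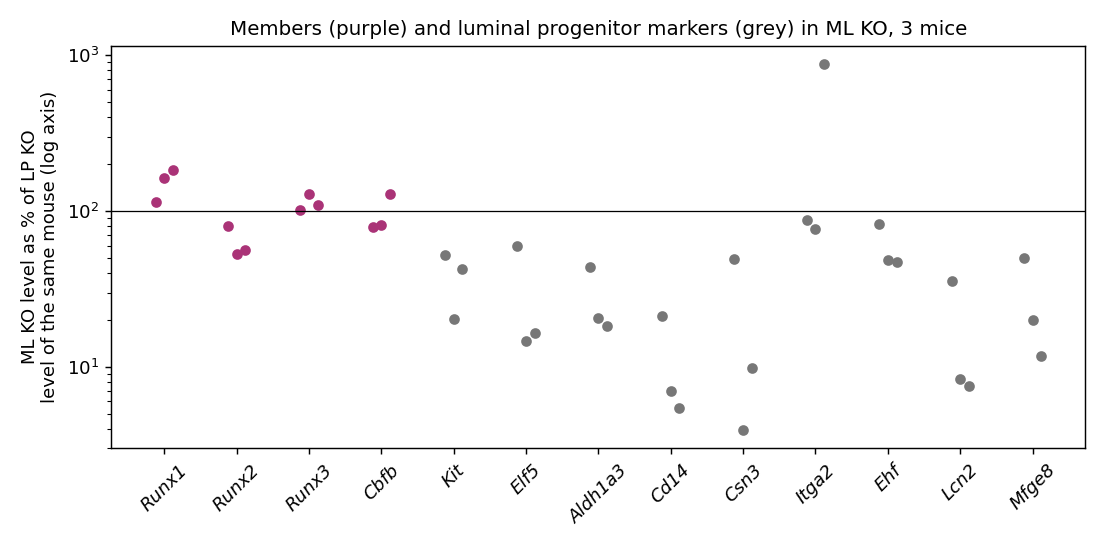
Level in ML KO as a percentage of the level in LP KO of the same mouse (y axis, logarithmic), with 1 point per mouse, for the RUNX genes and Cbfb (purple) and 9 LP markers (grey) on the x axis. The line marks 100%. Runx3 lay at 101% to 129% in the 3 mice. Of the LP markers, Kit lay at 20.2% to 51.97%, Ehf at 47.02% to 82.3% and Itga2 at 76.9% to 876%.

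Since RUNX3 is known from T and NK cells, the 22 markers of these cells were read beside it. In ML their summed level was 7.74 to 8.42 CPM for KO and 3.33 to 4.19 for WT. LP libraries had sums of 6.33 to 11.1 CPM (KO) and 2.22 to 4.07 (WT), and basal libraries 17.5 to 27.9 (KO) and 19.6 to 37.1 (WT). The sums were highest in basal cells, where Runx3 was at most 1.62 CPM. In basal WT that sum came mostly from Lck (11.6 ± 2.67 CPM) and Trbc2 (8.91 ± 5.08 CPM). Cd3e and Cd3g had 3 and 2 counts there over the 3 libraries, so the basal sum does not follow the defining T cell genes. Among the defining T cell genes, Cd3d and Cd3g had 0 counts in ML KO, and Cd3e, part of the T cell receptor complex, had 1 count in the 3 libraries, where Runx3 had 558. In LP KO Cd3e had 7 counts in all, and in both WT luminal groups it had 0. Cd2, Cd247, Cd8b1, Klrb1c and Ncr1 were also at 0 in ML KO. Ptprc, the common leukocyte antigen CD45, was at most 0.554 CPM in ML KO and 1.09 in LP KO.

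Of the T and NK markers, 8 passed the low-count filter, of which 2 were called higher in ML KO and 0 in basal KO. Trbc2, a T cell receptor constant region, stood at 2.42 ± 1.01 CPM in ML KO against 0.467 ± 0.333 (log2 fold change 2.31, SE 0.65, edgeR adjusted p = 0.02). That call passed in 11 of 14 alternatives (adjusted p up to 0.09), and without ML KO mouse 1 it was lost (1.95, edgeR adjusted p = 0.081), with 0 of the 8 markers called. Lck, a T cell kinase, stood at 2.66 ± 0.778 against 1.21 ± 0.724 (adjusted p = 0.11). The median over the 8 markers was 1.79 in ML, beside 0.02 over all genes. Of 6 measured pan-leukocyte markers 2 were called higher in ML KO, among them Cytip at 78.2 ± 46.5 CPM against 8.05 ± 1.13, which stood at 279.6 ± 133 in LP WT. Called higher in ML KO were also 0 of 8 myeloid, 0 of 1 B cell, 1 of 9 fibroblast and 1 of 7 endothelial markers. The pan-leukocyte, fibroblast and endothelial counts were 2, 1 and 0 without ML KO mouse 1. The part of leukocytes in the Runx3 counts of ML KO was not tested.

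**Figure D4:**
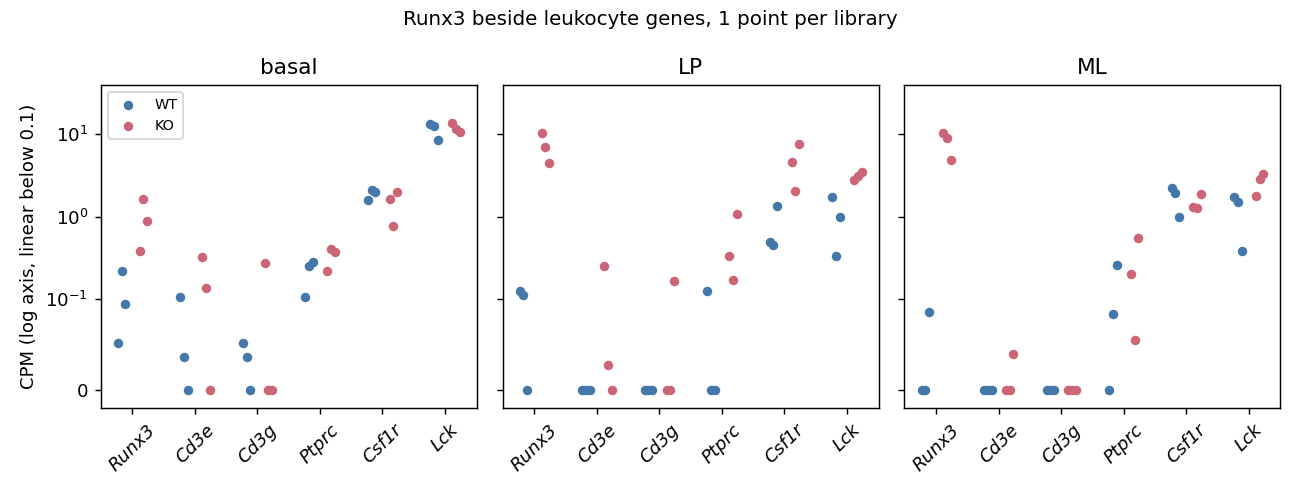
Level in CPM (y axis, logarithmic above 0.1 and linear below) of Runx3 and 5 leukocyte genes (x axis) in basal, LP and ML libraries, with 1 point per library, blue for WT and red for KO. In ML KO, Runx3 reached 4.82 to 10.5 CPM while Cd3g was at 0, and in basal libraries Lck was at 8.57 CPM or more.

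Supt3 is the counted gene that overlaps Runx2 on the opposite strand. Runx2os3, a long noncoding RNA gene, also overlaps it on that strand but has no counts of its own. The strand setting of the counting is not given, so reads from the overlaps cannot be told apart. Supt3 stood at 12.1 ± 4.14 CPM in ML KO and 8.33 ± 2.697 in ML WT (log2 fold change 0.52, SE 0.34, edgeR adjusted p = 0.338), where Runx2 differed 20.99-fold.

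Genes around the RUNX factors were read from fixed lists. Their counts stand beside 15.1% of all genes called in ML KO (12.5% higher) and 2.54% in basal KO. Of 27 measured RUNX cofactors and modifiers, 5 rose, 0 fell and 22 were not called in ML KO, with a median log2 fold change of 0.13 beside 0.02 over all genes. That count is near the share of all genes. Cdk6, a cell cycle kinase known to bind RUNX1, rose from 0.339 ± 0.257 to 13.98 ± 4.74 CPM (log2 fold change 5.65, SE 0.66, edgeR adjusted p = 8.8e-06). Tle4, a corepressor, rose from 4.1999 ± 1.86 to 22.9 ± 10.02 CPM (2.42, SE 0.35, adjusted p = 7.6e-05). The corepressor Tle1 (0.83, adjusted p = 0.013), the histone methyltransferase Suv39h1 (1.14, adjusted p = 0.0097) and the YAP-related coactivator Wwtr1 (0.77, adjusted p = 0.024), named beyond the 4 of lowest p, rose too. Without ML KO mouse 1, 3 rose, and the calls of Suv39h1 (0.94, edgeR adjusted p = 0.058) and Wwtr1 (0.52, adjusted p = 0.18) were lost. Wwtr1 was also lost without any 1 of the ML WT mice, Suv39h1 without ML WT mouse 2 and Tle1 without ML WT mouse 1. In basal KO none of the 27 was called, and the median was -0.13 beside -0.02.

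The same cofactors were also compared between WT populations. In ML against basal cells 3 were called higher, 12 lower and 12 not called, where 53.3% of all genes were called and 28.5% were lower. The count called in either direction is near the share of all genes. Tle4 stood at 67.4 ± 21.02 CPM in basal WT, 69.98 ± 7.697 in LP WT and 4.1999 ± 1.86 in ML WT, and so, like Runx2, was low in ML alone. Cdk6 stood at 4.61 ± 1.56, 30.1 ± 11.4 and 0.339 ± 0.257 CPM in the same populations.

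Of 24 genes of TGF-beta and BMP signalling, whose SMAD proteins are known RUNX partners, 4 rose and 1 fell in ML KO (median -0.16 beside 0.02). The co-receptor Tgfbr3 rose from 2.297 ± 1.23 to 29.7 ± 8.53 CPM (log2 fold change 3.60, SE 0.37, edgeR adjusted p = 2.3e-06). The ligands Tgfb2 (3.93, adjusted p = 2.9e-05) and Bmp7 (2.31, adjusted p = 2.8e-04) and the BMP target Id1 (2.04, adjusted p = 0.0016) rose as well, and the receptor Bmpr1b fell by 1.78 (adjusted p = 0.021). The count is near the share of all genes. In the fit without ML KO mouse 1, 4 rose and 0 fell. The call of Bmpr1b was lost there (-1.71, edgeR adjusted p = 0.082), and without ML KO mouse 2 or ML WT mouse 2. In basal KO 0 rose and 1 fell, the inhibitory Smad7, at 225 ± 60.5 against 439 ± 66.5 CPM (-0.96, SE 0.25, edgeR adjusted p = 0.042). That call was lost in 8 of 14 alternatives (adjusted p 0.013 to 0.23).

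Of 15 measured skeletal genes linked to RUNX2, 2 rose and 0 fell in ML KO, with a median of 1.30 beside 0.02 over all genes, and a count near the share of all genes. The uncalled genes ran from -3.44 (SE 1.53, Tnfsf11) to 4.76 (SE 2.09, Bglap), so the median rests largely on values with wide errors. The list's median was also above that of all genes in basal KO (0.54) and LP KO (0.80). The genes that rose were Alpl, the tissue-nonspecific alkaline phosphatase (1.43 ± 1.35 to 17.5 ± 9.62 CPM, edgeR adjusted p = 8.4e-05), and Mmp2, a matrix metalloproteinase (0.956 ± 0.625 to 8.09 ± 6.88 CPM, adjusted p = 0.0064). With ML KO mouse 1 left out, 2 rose and 1, the ligand gene Tnfsf11, fell. Alpl was also low in ML WT alone among the WT populations, at 243 ± 27.6 CPM in basal cells and 90.9 ± 10.6 in LP. Of 13 measured blood cell genes linked to RUNX1 and RUNX3, 1 rose in ML KO, the chemokine gene Ccl5, from 0.0699 ± 0.0867 to 4.65 ± 2.93 CPM (edgeR adjusted p = 1.5e-04). In basal KO no skeletal gene was called, and Ccl5 was again the only blood cell gene called (log2 fold change 3.51, edgeR adjusted p = 0.026). That call passed in 8 of 14 alternatives (adjusted p up to 0.27), and was lost without basal KO mouse 3 or any 1 of the WT mice.

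Of 20 mammary transcription factors, 7 rose and 3 fell in ML KO (median 0.22). Sox10 (log2 fold change 4.65), Trp63 (4.61), Snai2 (4.46) and Cebpb (1.87) had the lowest p. Trp63 and Snai2, regulators of basal cells, stood in ML KO at 30.4 ± 3.15 and 4.47 ± 0.281 CPM, against 247 ± 134 and 77.6 ± 7.48 in basal WT. The luminal factors Esr1, Foxa1 and Gata3 fell by 1.52, 1.24 and 0.85. These calls passed in 11, 10 and 10 of 14 alternatives. All of them were lost without ML KO mouse 1 (-1.24, -0.86 and -0.77, edgeR adjusted p = 0.1, 0.098 and 0.13), where 7 factors rose and 0 fell, and without ML WT mouse 2. Esr1 was also lost without ML WT mouse 1, Foxa1 and Gata3 without ML WT mouse 3, and Gata3 without ML KO mouse 2. In basal KO only the epithelial factor Ehf was called, at 18.8 ± 6.82 against 3.59 ± 1.32 CPM (edgeR adjusted p = 0.001).

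**Figure D5:**
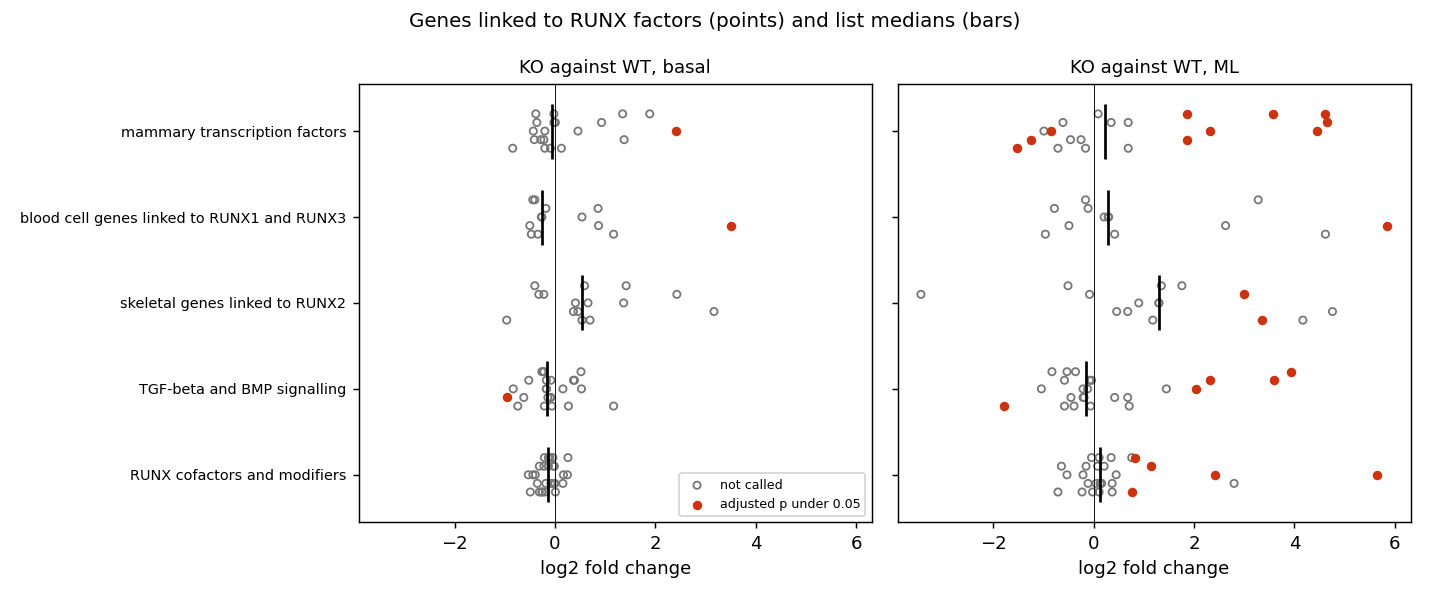
Log2 fold change of KO against WT (x axis) for the measured genes of 5 lists (rows) in basal cells (left) and ML cells (right), from edgeR with 3 mice per group. Red points were called at an adjusted p under 0.05, open points were not, and vertical bars are list medians. The skeletal list had a median of 1.30 in ML, and the cofactors one of 0.13. There 2 of 15 skeletal genes and 5 of 27 cofactors were called.

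The genes most like each member were found by the root mean square difference of centred log2 CPM over the 18 libraries, as a description. For Runx1 they were the cytokine receptor Osmr (0.33), Nfyb (0.35) and Smad1 (0.40), set against a spread of Runx1 itself of 1.24 (SD). For Runx2 they were Tnfrsf11a, which encodes the receptor RANK (0.48), Prcp (0.50) and Lgr6 (0.51), beside a spread of 2.21. Tnfrsf11a stood at 25.1, 22.5 and 0.305 CPM in basal, LP and ML WT and at 6.61 in ML KO, and so, like Runx2, was low in ML WT alone. For Runx3, whose spread was 2.61, they were Crb1 (0.72), Atp6v0a4 (0.87) and Pglyrp4 (0.91). Crb1 had 0 CPM in all WT groups and 0.995, 4.52 and 3.43 CPM in basal, LP and ML KO. For Cbfb, with a spread of 0.29, they were Zdhhc5 (0.14), Map3k7 (0.16) and Eif4enif1 (0.16).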

How the data were processed

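The files hold counts, as whole numbers of reads for each gene, as deposited. The authors produced them with featureCounts and mm10, per the submitters' processing notes. The libraries came from an Illumina TruSeq RNA v2 kit, per the labels' protocols. Of the aligner, versions, annotation and strand setting, the sources used here give none. The table of the series holds the same counts as the 18 files of single libraries. Of 27179 identifiers, 25275 matched a RefSeq symbol and 1904 (1.6% of counts) did not. The chi-square per degree of freedom between replicates was 22.6 to 204.3, so no library repeated another of its group.

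Groups follow the genotype and cell type labels. Genes were filtered with filterByExpr (16466 left), scaled by TMM (factors 0.832 to 1.19) and fitted with edgeR 4.0.16 in R 4.3.3 over all 18 libraries, with a biological coefficient of variation of 33.3%. Thresholds are adjusted p under 0.05. The script was tested on simulated counts. The alternatives were RLE scaling, no filter, DESeq2 1.42.0, limma 3.58.1 (voom), only the groups compared, libraries thinned to 1 depth, a block, leaving out each library and, added after seeing the data, a robust fit and list counts without ML KO mouse 1.

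Within a genotype a replicate number is the same mouse in each population, per the mouse numbers in the sample descriptions. Deviations of same-mouse libraries correlated at 0.0949 to 0.334, above 0.1 in 17 of 18 pairs.

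The members, lists and tests were chosen with earlier results of these data known. Named genes are the members, label and cell checks, the 4 genes of lowest p per list and comparison with a group mean of at least 2 CPM, and the 3 genes most like each member. Wwtr1 and Bmpr1b in ML, Ccl5 in basal cells, Supt3, Cd3d, Cd3g, Csf1r, Tnfsf11 and the ML factors below the lowest 4 p were named after their values were seen. Library totals set the precision. Promoter windows are RefSeq's on GRCm38.p6.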

Additional observations from a re-analysis of the deposited data

Results flagged for a closer look

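The effect of KO differed between ML and basal cells for 2 members, by the interaction test of edgeR with Benjamini-Hochberg adjustment. For Runx2 the effect in ML exceeded that in basal cells by 4.79 on the log2 scale (SE 0.52, adjusted p = 1.4e-05), with all 3 ML KO libraries above all ML WT libraries. It passed the threshold in all 20 alternatives (4.54 to 5.22). For Runx3 the difference was 4.45 (SE 1.26, adjusted p = 0.041), with KO above WT in all 3 libraries of both populations. It passed in 9 of 20 alternatives, with adjusted p-values of 0.015 to 0.55.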

How the results depend on the processing

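Of 388 alternative values for 26 member tests, 359 kept their direction and side of the threshold, 6 had the other sign and 23 crossed the threshold, and 19 tests kept both throughout. The Runx1 interaction (-0.04) ran from -0.30 to 0.22 without a library, and Cbfb in LP against ML WT (0.28) from -0.12 to 0.46, without a call. For Runx3 in basal KO against WT (2.85) the call was lost with voom (2.71), with only the groups compared (2.84) and with thinned libraries (3.69), and leaving out a library gave 2.18 to 3.75. For the Runx3 interaction (4.45) it was lost with voom (3.97) and thinning (3.09), and leaving out a library gave 3.58 to 7.49. Runx3 in LP against basal WT moved from -1.01 to -0.08 with thinning (-1.56 to -0.14 without a library), and in LP against ML WT it ran from -0.14 to 3.46. Cbfb gave -0.60 to -0.02 in LP against basal WT without a library, and -0.50 in ML against basal WT with only those groups. Runx1 in LP against ML WT gave -0.98 to -0.40 without a library. The cause was not tested.

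Genes called in basal KO against WT numbered 418 (694 with DESeq2, 224 to 419 without a library), in ML 2491 (1637 to 2282 without a library) and in LP 2178 (680 with only the groups compared, 847 to 2446 without a library).

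The mouse as a replicate block changed 2 calls of the members, Runx1 in LP against ML WT (-0.74) and the Runx3 interaction (4.32), and turned the sign of the uncalled Runx1 interaction (0.03). Between genotypes a shared number pairs different mice (r -0.0977 to 0.258), and the block on it changed no call of a member. Runx3 in WT libraries rests on 0 to 6 counts, which limits every fold against them.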
